A study of Homo sapiens with 12 samples.

Results

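Gene expression was compared between SKNMC cells given 40 µM NU7441 for 48 h and SKNMC cells given 0.1% (v/v) DMSO vehicle, with 3 Illumina BeadChip arrays in each group. These 6 arrays are part of a set of 12 that covers 2 Ewing sarcoma cell lines, SKNMC and TC32, under the same treatments. SKNMC (SK-N-MC) is an established human line of Ewing sarcoma. This tumour of young people arises in bone or nearby tissue and carries a chimeric transcription factor, usually EWS-FLI1. Genes entered the comparison when a probe was detected above the negative control beads (detection p-value below 0.05) on 3 or more of the 6 arrays, which left 11031 genes, against 12171 when the same limit was set over all 12 arrays. No genetic change was made to the cells, and the labels do not say whether NU7441 was given in DMSO. The labels call the arrays of a group replicates 1 to 3 without saying whether each was its own culture. The p-values below therefore rest on array-to-array spread that could be purely technical. The vehicle titles carry a mark, (2), that the NU7441 titles lack and that the labels do not explain. If it marks a separate run, that run and the treatment cannot be told apart.

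NU7441 is an ATP-competitive inhibitor of the DNA-dependent protein kinase, the enzyme encoded by PRKDC that holds broken DNA ends together for non-homologous end joining. At higher concentrations it is known to act also on the related PI3K and mTOR kinases. In tumour cells mTOR supports translation of ATF4, the transcription factor that switches on genes for amino acid uptake, amino acid synthesis and transfer RNA charging, while sterol-sensing SREBP factors switch on cholesterol synthesis when sterols run low.

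The 3 NU7441 arrays were not alike, and this bears on many of the values below. Mean raw intensity was 171 to 183 and 17944 to 20148 probes were detected per array. Across the genes tested, vehicle arrays correlated at 0.993 to 0.994 with each other, and NU7441 replicates 2 and 3 at 0.992. Replicate 1 correlated at 0.954 and 0.952 with replicates 2 and 3, and at 0.954 to 0.957 with the vehicle arrays, while replicates 2 and 3 correlated at 0.903 to 0.908 with vehicle. Replicate 1 was thus about as close to vehicle as to the other NU7441 arrays. Of the 11031 genes, 242 (2.19%) stood 1 log2 unit or more above the vehicle mean on replicate 1, 670 (6.07%) on replicate 2 and 636 (5.77%) on replicate 3. On the low side the counts were 387 (3.51%), 890 (8.07%) and 939 (8.51%). On all 3 arrays, 139 genes were above by this margin and 299 below. On replicates 2 and 3 but not 1, 368 were above and 485 below. On replicate 1 alone, 72 were above and 59 below. CES1P1, CXCR4 and NQO1 were the 3 genes that stood 1 log2 unit or more on opposite sides of vehicle on replicate 1 and on both other arrays. The standard deviation over replicates exceeded 1 log2 unit for 112 genes with NU7441 and for 0 with vehicle.

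**Figure D1:**
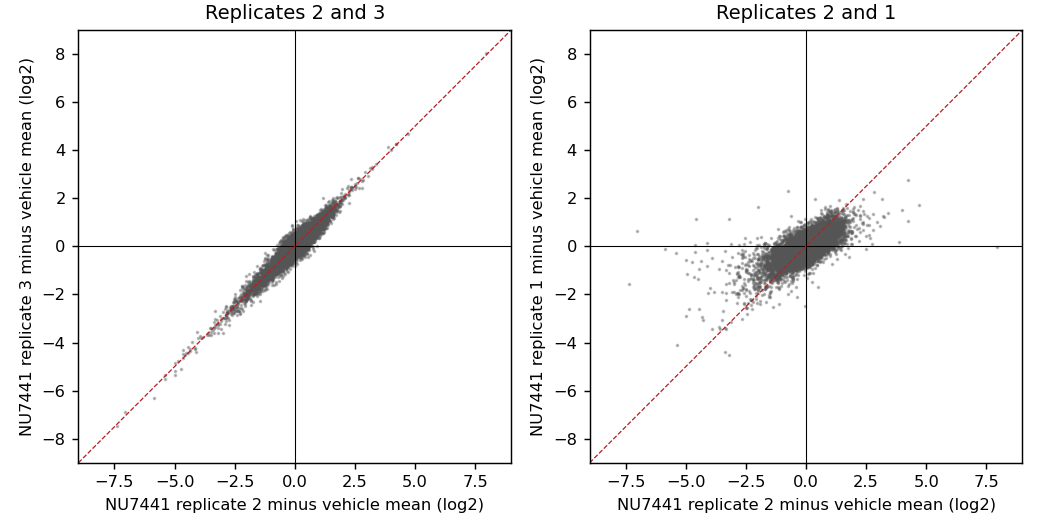
Difference from the vehicle mean in log2 units for each of the 11031 genes, with NU7441 replicate 3 (left) or replicate 1 (right) on the vertical axis against replicate 2 on the horizontal axis. Points on the left follow the dashed line of equality, and on the right a set of genes far below 0 on replicate 2 lies near 0 on replicate 1.

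The genes that set replicates 2 and 3 apart most were chosen for that difference and are described without a test. CES1, a liver-type carboxylesterase, read 11.45, 11.05 and 11.25 (log2 normalized signal) on the vehicle arrays, 11.90 on NU7441 replicate 1, and 4.20 and 4.37 on replicates 2 and 3. ALDH1A1, a retinaldehyde dehydrogenase, read 11.63, 11.71 and 11.85 with vehicle, then 10.17, 4.36 and 4.27. TGFBI, a secreted matrix protein induced by TGF-beta, read 10.88, 10.98 and 10.93 with vehicle, then 10.81, 5.09 and 4.61. Replicates 2 and 3 lay at or not far above the background of the array in these genes, and replicate 1 lay much nearer to vehicle. ITGB2, CRYAB, MGST1, CES1P1 and CXCR4 showed the same order. In the other direction stood the 28S ribosomal RNA probe RNA28SN5, the chemokine gene CXCL8, the 5S ribosomal RNA gene RNA5S9, the small RNAs RNU4-2, RN7SK and SNORD3D, the metallothionein MT1G and the argininosuccinate synthase gene ASS1. CXCL8 read 5.42, 5.38 and 5.41 with vehicle, 5.60 on replicate 1, and 9.27 and 9.53 on replicates 2 and 3. ASS1 differed from the others of this set, since replicate 1 was the array that departed from vehicle (8.87, 8.89 and 8.91 with vehicle, then 6.41, 8.85 and 8.69).

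A set of genes was far lower on replicates 2 and 3 alone. There were 23 genes that stood 3 log2 units or more below vehicle on both replicates 2 and 3 and less than 1 below it on replicate 1. All 23 were detected on every TC32 array, as were 78.6% of all genes tested. A fall this large needs a strong vehicle signal, and the SKNMC vehicle median over all genes was only 6.34. These shares therefore compare genes of unlike signal. With the 12 arrays normalized together, the median signal of the 23 genes was 9.84 in TC32 vehicle and 9.34 in TC32 NU7441. With the SKNMC arrays normalized on their own, it was 8.97 in SKNMC vehicle and 8.82 on SKNMC NU7441 replicate 1. On SKNMC NU7441 replicates 2 and 3 it was 4.83 and 4.61. The TC32 and SKNMC medians thus come from separate normalizations. By comparison, 34 genes stood 2 log2 units or more below vehicle on all 3 arrays, and 23 of them (67.6%) were detected on every TC32 array. The share of genes that lost detection was lower among genes detected on every TC32 array. Of 9592 genes detected on all vehicle arrays and on NU7441 replicate 1, 362 (3.77%) were undetected on both replicates 2 and 3. They were 199 of the 8507 genes detected on every TC32 array (2.34%), 147 of the 961 detected on some (15.3%) and 16 of the 124 detected on none (12.9%). Detection was lost on replicate 1 alone in 75 genes, of which 15 were detected on every TC32 array, 52 on some and 8 on none. No share was computed for replicate 1, so the patterns of loss were not compared. Over the 174 genes whose vehicle signal was at least 1 log2 unit higher in TC32 than in SKNMC, the median difference from SKNMC vehicle was -0.36, -0.89 and -0.999 on replicates 1, 2 and 3. Over the 358 genes higher in SKNMC vehicle by that margin, it was -0.31, -0.19 and -0.19. The part of cell identity or sample handling in the gap between replicate 1 and replicates 2 and 3 was not tested, so array values are given beside the main results below. The lone value of replicate 1 is also what remains when replicates 2 and 3 are left out.

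**Figure D2:**
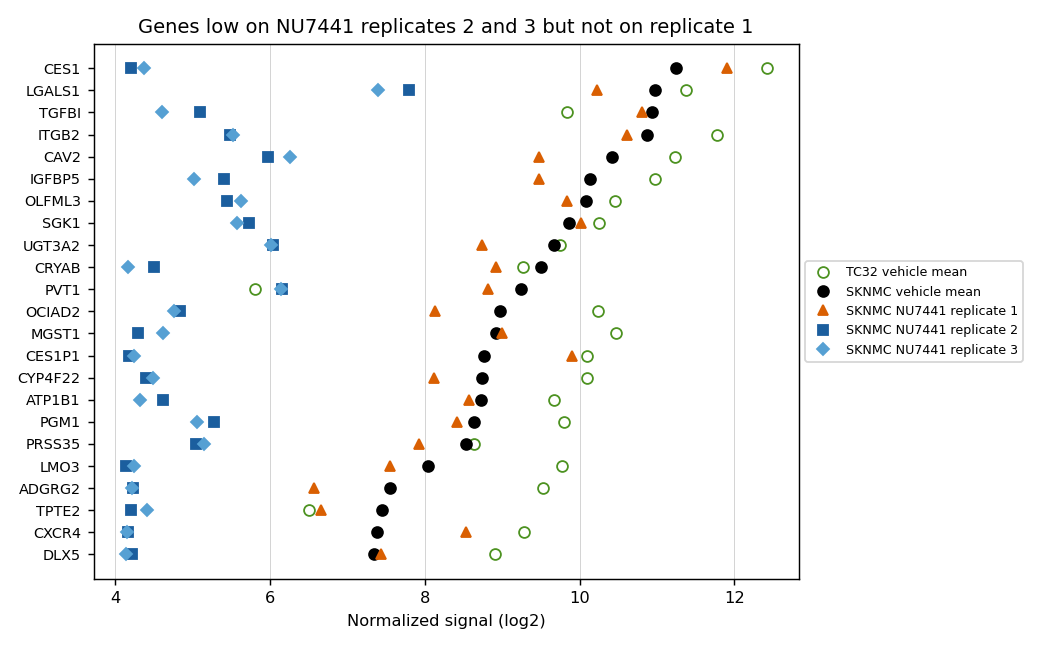
Normalized log2 signal of the 23 genes that were 3 log2 units or more below vehicle on NU7441 replicates 2 and 3 and less than 1 below it on replicate 1, with the SKNMC vehicle mean, each SKNMC NU7441 array and the TC32 vehicle mean as points. The TC32 means come from the 12 arrays normalized together. Replicate 1 lies less than 1 unit below the SKNMC vehicle mean in each gene, and replicates 2 and 3 lie far to the left.

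Fitted with limma, 1077 of the 11031 genes (9.76%) passed both limits of a call, a change of 1 log2 unit or more and an adjusted p (Benjamini-Hochberg) below 0.05. NU7441 raised 415 genes (3.76%) and lowered 662 (6%). The counts for gene lists below are to be read against these shares. The median change of the raised genes was 1.21, made up of medians of 0.94, 1.39 and 1.39 on replicates 1, 2 and 3. Among the lowered genes it was -1.37, from -0.98, -1.60 and -1.60. Changes of 2 log2 units or more were found in 22 raised and 115 lowered genes. Of the called genes, 236 raised and 334 lowered ones differed by less than 1 log2 unit on replicate 1. Without any threshold on p, every NU7441 array lay above every vehicle array in 2688 genes (24.4%) and below in 2939 (26.6%). ACTA2, ALDH1A1, CCL2, COL11A1, CXCL14, DHRS3, ELOVL6, ETV5, IGFBP7, LIPI, LUM, MBD3L3, MBD3L4 and UPP1, named below, were detected on 1 of the 3 NU7441 arrays, so their low values are near background. Left without NU7441 replicate 1, the calls numbered 625 higher and 904 lower. With replicate 1 alone, which was then assumed to vary like the vehicle arrays, the limit on p removed no gene. Counts given below for replicate 1 alone are therefore genes 1 log2 unit or more from the vehicle mean on that array, and not a test. The share of higher genes among the calls was 38.5%, and 22.9% (260 higher and 874 lower) without between-array normalization, where the median of all genes stood at -0.13 instead of 0.00. Without background correction 130 genes were called higher and 206 lower. Calls that ended in that setting are mostly not marked gene by gene below.

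Genes were next ranked by their smallest difference from vehicle on any NU7441 array, among called genes whose groups did not overlap. The genes raised on all 3 arrays held a collagen, inducible chaperones, histones, small nuclear RNAs, the transferrin receptor and a sterol enzyme. COL7A1, the collagen of anchoring fibrils in skin, read 5.15, 5.38 and 5.43 with vehicle and 8.08, 9.55 and 9.57 with NU7441 (log2 fold change 3.75 ± 0.36 SE, adjusted p = 0.000373). HSPA1B, an inducible cytosolic HSP70, read 6.95, 6.79 and 7.13, then 9.22, 9.79 and 9.70 (2.61 ± 0.18, adjusted p = 0.000101). Its near-identical neighbour HSPA1A followed at 2.37 ± 0.22, and probes may not tell the pair apart. TFRC, which takes up transferrin-bound iron, read 8.54, 8.52 and 8.54, then 10.22, 10.80 and 10.78 (2.07 ± 0.17, adjusted p = 0.00021). All 3 NU7441 arrays stood clear of vehicle in these genes, with replicate 1 the lowest of the 3. EFR3B, a plasma membrane anchor for a phosphatidylinositol 4-kinase, was as high on replicate 1 as on the others, at 6.68, 6.56 and 6.78 against 4.94, 4.85 and 4.94 (1.77 ± 0.12, adjusted p = 0.000101). TP53INP1, a stress-induced autophagy protein, rose by 1.86 ± 0.14 and the kinase TESK2 by 1.80 ± 0.15. Without background correction EFR3B (0.85) and TESK2 (0.74) were under the fold minimum and lost their calls. The histone genes H2BC5 (2.80 ± 0.32) and H2AC6 (2.03 ± 0.25), the U4 RNA RNU4-2 (1.73, 4.69 and 4.68 above the vehicle mean), the 7SK RNA RN7SK (1.51, 3.99 and 4.02 above the vehicle mean on replicates 1, 2 and 3) and the lanosterol synthase LSS completed the 12.

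The genes lowered on all 3 arrays were led by the MBD3L family and by amino acid stress genes. MBD3L5 read 10.42, 10.43 and 10.31 with vehicle and 6.30, 5.01 and 4.87 with NU7441 (-4.99 ± 0.33, adjusted p = 0.000101). MBD3L2, MBD3L3 and MBD3L4 changed by -3.34, -3.52 and -3.41. These paralogs of the chromatin protein MBD3 are active in the early embryo and are known targets of DUX4. Their sequences are near-identical, so their values may be one signal read several times. TSC22D3 (GILZ), a leucine zipper protein induced by glucocorticoids and FOXO factors, read 8.87, 8.90 and 8.99, then 5.47, 4.99 and 5.18 (-3.71 ± 0.15, adjusted p = 7.76e-06). TXNIP, which blocks glucose uptake and thioredoxin, read 9.92, 9.84 and 9.87, then 6.80, 5.61 and 5.90 (-3.77 ± 0.27, adjusted p = 0.000107). DHRS3, a retinal reductase, fell by 3.88 on the log2 scale (8.70, 8.86 and 8.85, then 5.87, 4.46 and 4.44). RGS4, a brake on G protein signalling, was detected on none of the NU7441 arrays and was at least 7.42-fold lower. For such genes the fold is a bound, taken against the lowest detected signal of each array or the gene's own signal where higher. STC2, CTH, PCK2 and TRIB3 made up the rest of the 12 and belong to the amino acid response described next.

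**Figure D3:**
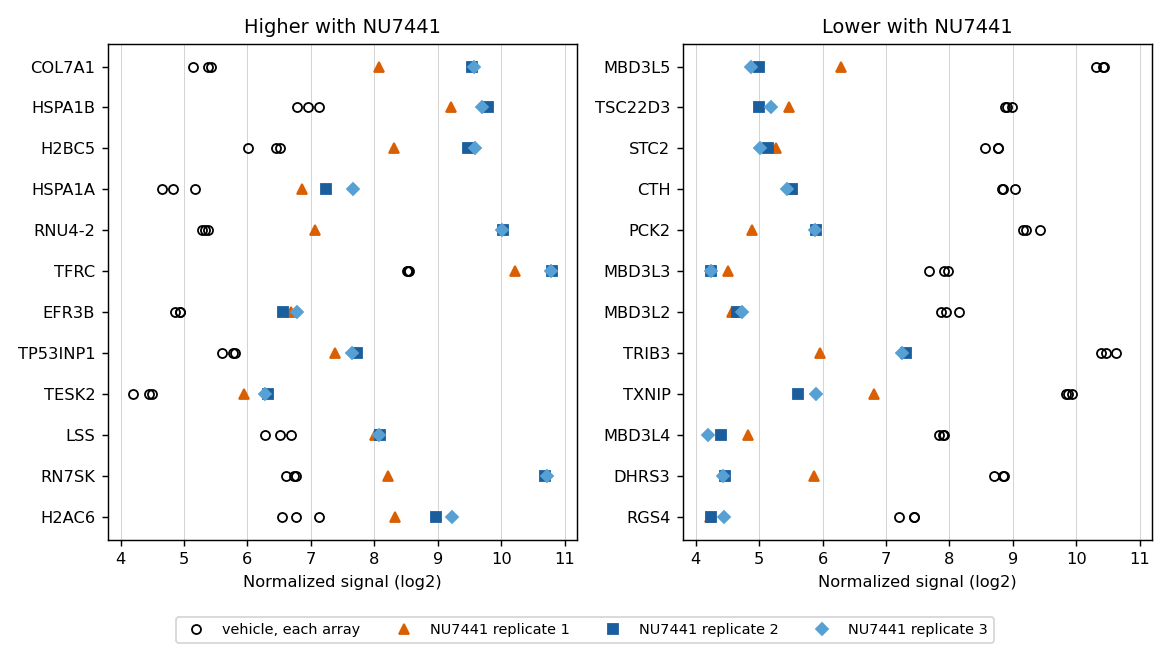
Normalized log2 signal on each of the 3 vehicle and 3 NU7441 arrays for the 12 highest and 12 lowest called genes by their smallest difference from the vehicle mean. In every gene shown the vehicle arrays (open circles) and the NU7441 arrays do not overlap.

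Many genes of the amino acid response fell, with all 3 arrays contributing. Of 13 tested enzymes of amino acid synthesis and one-carbon metabolism, 11 fell and 0 rose, with a median change of -2.02 (-1.90, -1.93 and -1.98 on replicates 1, 2 and 3) against 0.00 over all genes. Of 11 amino acid transporters 6 fell, of 18 cytosolic aminoacyl-tRNA synthetases 7 fell, and of 18 ATF4 partners and stress effectors 12 fell, with medians of -1.08, -0.77 and -1.43 and no member raised. None of the called genes of these 4 lists was under 1 log2 unit on replicate 1. With replicate 1 alone the lists gave 11, 7, 7 and 17 lowered genes.

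ATF4 binds DNA with C/EBP partners at a composite element whose core is often written TGATGNAA. This core was searched on both strands of the bases around each gene start (250 before to 50 after) in the RefSeq promoters of GRCh38.p14. It was found in 13 of the 50 list promoters that could be matched (26%) and in 10 of the 30 whose gene was called, against 1003 of 27305 promoters (3.67%). The promoters of 5 lowered genes are shown because they carry the core upstream of the start, on the gene's strand with the core, or its reverse complement, in capitals. A match of letters is no evidence of binding in these cells.
ASNS (chr7:97872445-97872500, minus strand): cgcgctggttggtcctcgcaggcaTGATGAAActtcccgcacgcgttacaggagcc
MTHFD1L (chr6:150866333-150866388, plus strand): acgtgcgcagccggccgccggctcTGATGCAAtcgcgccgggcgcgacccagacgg
AARS1 (chr16:70289662-70289717, minus strand): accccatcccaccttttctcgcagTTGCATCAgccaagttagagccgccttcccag
CHAC1 (chr15:40953238-40953293, plus strand): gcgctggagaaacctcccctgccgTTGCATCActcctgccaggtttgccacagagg
ATF3 (chr1:212565192-212565247, plus strand): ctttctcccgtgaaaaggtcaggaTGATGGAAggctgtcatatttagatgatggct

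Among the enzymes, CTH, which makes cysteine from cystathionine, read 9.03, 8.83 and 8.84 with vehicle and 5.51, 5.51 and 5.43 with NU7441 (-3.41 ± 0.12, adjusted p = 7.76e-06). PCK2, the mitochondrial phosphoenolpyruvate carboxykinase, read 9.20, 9.17 and 9.43, then 4.88, 5.90 and 5.88 (-3.71 ± 0.26, adjusted p = 0.000105). ASNS, the asparagine synthetase, read 11.46, 11.58 and 11.44, then 9.10, 9.56 and 9.51 (-2.10 ± 0.15, adjusted p = 0.000107). Replicate 1 was the lowest array in PCK2 and ASNS and equal to the rest in CTH. The serine pathway fell at each step. PHGDH, its first enzyme, read 12.39, 12.41 and 12.44, then 10.74, 10.74 and 10.65 (-1.70 ± 0.11), PSAT1 changed by -2.36 (-1.92, -2.57 and -2.58 by array) and PSPH by -2.94. PSPH was less reduced on replicate 1 (7.48) than on replicates 2 and 3 (5.87 and 5.97). The folate enzymes MTHFD2 (-2.02 ± 0.16), MTHFD1L (-1.88 ± 0.17) and SHMT2 (-1.02 ± 0.11), the cystathionine synthase CBS (-2.60 ± 0.16) and the proline enzyme PYCR1 (-1.35 ± 0.12) also fell, SHMT2 without a call under median scaling (-0.93). ALDH18A1 (-0.46 ± 0.21) and ALDH1L2 (-0.38 ± 0.14, undetected on all 3 NU7441 arrays) did not pass the test.

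Of the transporters, the cationic amino acid carrier SLC7A1 read 9.09, 9.20 and 9.02 with vehicle and 6.50, 6.83 and 6.33 with NU7441 (-2.55 ± 0.15, adjusted p = 6.38e-05). The glycine carrier SLC6A9 changed by -2.43, the leucine carrier SLC7A5 by -2.28 (-1.63, -2.65 and -2.56 by array), the cystine carrier SLC7A11 by -2.08, and the glutamine carriers SLC38A1 and SLC1A5 by -1.69 and -1.08. The SLC1A5 call ended without NU7441 replicate 1 (-0.88). SLC3A2, the heavy chain that pairs with SLC7A5 and SLC7A11, stood at -0.84 ± 0.11 and SLC38A2, a further glutamine carrier, at 0.21 ± 0.24. Among the synthetases AARS1 (11.77, 11.57 and 11.76, then 9.72, 9.95 and 9.87), YARS1, GARS1, MARS1, TARS1, NARS1 and SARS1 fell, with changes of -1.85 to -1.02. SARS1 stood at -1.65, -0.74 and -0.66 on replicates 1, 2 and 3, and lost its call without NU7441 replicate 1 (-0.70) or vehicle replicate 2 (-0.97) or 3 (-1.02). These enzymes load transfer RNAs with their amino acids, and QARS1 (-0.20 ± 0.11), HARS1 (-0.04 ± 0.14), KARS1 (0.01 ± 0.12) and FARSB (0.22 ± 0.13) did not pass the test.

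ATF4 itself read 11.84, 11.81 and 11.72 with vehicle, and 9.94, 11.18 and 11.06 with NU7441 (-1.06 ± 0.29, adjusted p = 0.0235). Here replicate 1 was the array furthest from vehicle. The ATF4 call ended without NU7441 replicate 1 (-0.67), without any 1 vehicle array (-1.10 to -1.04), under median scaling (-0.78) and where arrays were not normalized to each other (-0.96). The same order was found in TRIB3, a pseudokinase that restrains AKT and ATF4 (10.39, 10.47 and 10.63, then 5.96, 7.31 and 7.25, -3.66 ± 0.33), and in ATF3 (8.52, 8.72 and 8.61, then 6.22, 7.50 and 7.30, -1.61 ± 0.30). STC2, a secreted stanniocalcin, read 8.76, 8.77 and 8.57, then 5.27, 5.14 and 5.01 (-3.56 ± 0.13), and DDIT4 (REDD1), an inhibitor of mTORC1, fell by 2.25 ± 0.12. CHAC1, which degrades glutathione, and the stress protein NUPR1 were detected on none of the NU7441 arrays and were at least 3.19-fold and 4.02-fold lower. DDIT3 (CHOP), an apoptosis-linked C/EBP factor, split by array. It read 9.36, 9.06 and 9.25 with vehicle, 7.53 on replicate 1, and 9.73 and 9.76 on replicates 2 and 3 (-0.21 ± 0.53). PPP1R15A (GADD34), which reverses the translation block, did likewise at 7.93, 9.29 and 9.48 against 9.29, 9.16 and 9.23. ATF5, another ATF family factor, read 10.54, 10.61 and 10.52 with vehicle, then 8.46, 10.18 and 10.27. In the unfolded protein response of the endoplasmic reticulum 1 of 14 tested genes fell (7.14%, against 6% of all genes) and 0 rose. This was the factor XBP1 (9.89, 9.81 and 9.65, then 7.86, 6.96 and 7.03, -2.50 ± 0.23), while the chaperone HSPA5 (BiP) stood at 0.09 ± 0.14.

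**Figure D4:**
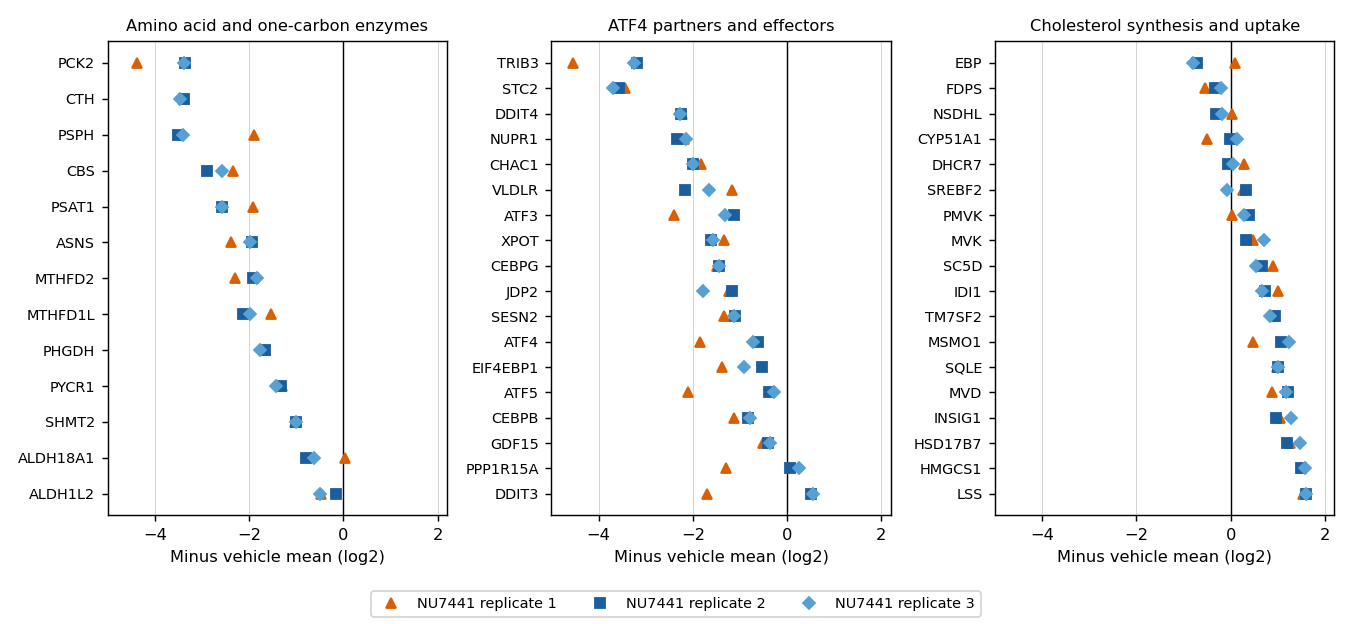
Difference from the vehicle mean in log2 units on each NU7441 array for every tested gene of 3 lists, ordered by mean difference. Most enzyme and ATF4 effector genes lie well below 0 on all 3 arrays, the sterol genes lie around or above 0 with the 3 arrays close together, and DDIT3 and PPP1R15A have replicate 1 alone far below 0.

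Some cholesterol genes rose, evenly over the arrays. Of 18 tested genes 5 rose and 0 fell, with a median of 0.75 (0.68, 0.69 and 0.69 on replicates 1, 2 and 3), and replicate 1 alone also gave 5. LSS, which closes the sterol ring, read 6.69, 6.27 and 6.51 with vehicle and 8.01, 8.09 and 8.08 with NU7441 (1.57 ± 0.14, adjusted p = 0.000284). HMGCS1, which makes the HMG-CoA of the mevalonate pathway, read 7.92, 7.97 and 7.91, then 9.42, 9.43 and 9.51 (1.52 ± 0.11, adjusted p = 0.000113). HSD17B7 (1.31 ± 0.12), MVD (1.09 ± 0.13) and the sterol sensor INSIG1 (1.09 ± 0.13) also rose. Without between-array normalization 3 of the 18 were raised, and the calls of INSIG1 (0.88) and MVD (0.96) ended. SQLE, the squalene epoxidase, stood at 1.00 ± 0.11 just under the minimum (9.34, 9.36 and 9.26, then 10.31, 10.33 and 10.32). EBP (-0.48 ± 0.23), FDPS (-0.36 ± 0.14) and the regulator SREBF2 (0.16 ± 0.15) did not pass. The fatty acid genes of the related SREBF1 branch went the other way, with 4 of 11 lowered and 0 raised. SREBF1 itself read 6.45, 6.64 and 6.92, then 5.51, 4.94 and 5.15 (-1.47 ± 0.18), the malic enzyme ME1 changed by -1.97 (-1.33, -2.30 and -2.28 by array) and the elongase ELOVL6 by -1.53. FADS2, a desaturase, was called at -1.06 ± 0.36, stood at 6.53 on replicate 1 against 6.58, 6.57 and 6.87 with vehicle, and lost its call without NU7441 replicate 2 or 3 (-0.97 and -0.69) or any 1 vehicle array (-1.11 to -0.96). The fatty acid synthase FASN stood at -0.34 ± 0.12. None of 6 tested LXR targets was called by limma. At an unadjusted p under 0.05 there were 5, the cholesterol exporter ABCA1 (-0.74 ± 0.14) furthest from 0. Over all 11031 genes, 5321 passed that limit.

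Lysosomal genes were mixed and heat shock genes rose in part. Of 17 lysosomal genes 4 rose and 1 fell. NEU1, a sialidase, read 6.75, 6.75 and 6.57, then 7.99, 8.94 and 8.84 (1.90 ± 0.24), the peptidase TPP1 rose by 1.51 ± 0.19, the cholesterol carrier NPC2 by 1.20 ± 0.13 and the ion channel MCOLN1 by 1.04 ± 0.19. MCOLN1 stood at 0.69, 1.33 and 1.10 by array, and its call ended without NU7441 replicate 2 (0.89), vehicle replicate 1 (0.93) or between-array normalization (0.89). The protease CTSL fell by 2.57 ± 0.52 and was again the array-split case, at 7.07 on replicate 1 and 4.99 and 4.79 on the others against 8.32, 8.15 and 8.09. Of 14 autophagy genes, the initiating kinase ULK1 (1.29 ± 0.16) and WIPI2 (1.25 ± 0.15) rose and 0 fell, while SQSTM1 stood at 0.53 ± 0.18. The core of the CLEAR element bound by TFEB-family factors, TCACGTGA, was in 5 of 28 matched lysosome and autophagy promoters (17.9%), among them 1 of 7 called genes, against 1.04% of all promoters. The called gene was MCOLN1, whose promoter is shown for that reason with the core in capitals.
MCOLN1 (chr19:7522558-7522613, plus strand): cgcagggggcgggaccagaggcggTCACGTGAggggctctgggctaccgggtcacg
Of 13 heat shock chaperones 3 rose and 1 fell. Besides the HSPA1 pair, the constitutive HSPA8 rose by 1.18 ± 0.12 (10.69, 10.52 and 10.59, then 11.64, 11.80 and 11.89). The small heat shock protein HSPB1 fell by 1.35 ± 0.22 (10.83, 10.69 and 10.73, then 9.94, 9.15 and 9.13), and HSP90AA1 stood at -0.10 ± 0.12.

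Some mitotic genes fell, mainly on replicates 2 and 3. Of 30 tested genes 6 fell and 0 rose, with a median of -0.70 (-0.41, -0.78 and -0.73 on replicates 1, 2 and 3). Every NU7441 array lay below every vehicle array in 23 of the 30, against the background of 26.6% given above. AURKA, a spindle kinase, read 9.75, 9.46 and 9.70 with vehicle and 8.40, 8.09 and 8.02 with NU7441 (-1.47 ± 0.15, adjusted p = 0.000456). HMMR, a spindle-associated hyaluronan receptor, read 8.90, 8.59 and 8.81, then 7.55, 7.20 and 7.14 (-1.47 ± 0.15, adjusted p = 0.000532). CDC25C changed by -1.30 (-0.59, -1.66 and -1.65 by array). CENPA was called at -1.16 (-0.75, -1.56 and -1.18 by array), a call that ended without NU7441 replicate 2 (-0.96). UBE2C was called at -1.04 (-0.36, -1.27 and -1.49 by array), and lost its call with median scaling (-0.96) and without any 1 array other than NU7441 replicate 1 (-1.06 to -0.81). Without NU7441 replicate 2 the list held 4 lowered genes. AURKB was called at -1.18 ± 0.25, with 8.29 on replicate 1 and 7.39 and 7.30 on the others, and came to -0.997 and lost its call without NU7441 replicate 3. On replicate 1 alone 3 mitotic genes stood 1 log2 unit or more from vehicle. MKI67, the proliferation marker, stood at 0.27 and was not called (adjusted p = 0.274). Of 31 replication genes, limma called 0 in either direction, with a median of -0.37 (-0.01, -0.41 and -0.55). At an unadjusted p under 0.05 there were 13 of the 31, against 5321 of all 11031 genes. Without NU7441 replicate 1 there were 4 lowered replication genes. The core of the cell cycle homology region, TTTGAA, was found in 17 of 25 matched mitotic promoters (68%), among them 2 of 4 called genes, against 15.4% of all promoters. The promoter of CENPA, the centromeric histone, is shown as one of these with the core in capitals.
CENPA (chr2:26786014-26786055, plus strand): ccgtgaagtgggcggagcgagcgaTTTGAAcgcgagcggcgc

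The D cyclin CCND2 fell evenly, at 9.73, 9.72 and 9.75 with vehicle and 8.46, 8.39 and 8.29 with NU7441 (-1.35 ± 0.11, adjusted p = 0.000233), while CCND1 stood at -0.20 ± 0.12. The inhibitor genes CDKN1A (0.61 ± 0.16), CDKN1C (0.80 ± 0.18) and CDKN2D (0.71 ± 0.14) were below the fold minimum. Among repair genes, PRKDC, which encodes the kinase that NU7441 inhibits, read 7.99, 7.81 and 7.90, then 7.92, 7.58 and 7.79 (-0.14 ± 0.13, adjusted p = 0.436). An inhibitor of the enzyme need not alter its transcript, so this value checks no label. Of 7 end joining genes 1 rose, the nuclease DCLRE1C (Artemis) at 1.25 ± 0.22 (0.75, 1.40 and 1.60 by array). Of 10 homologous recombination genes XRCC2 rose (8.41, 8.78 and 8.68, then 10.13, 9.68 and 9.73, 1.22 ± 0.16). BRCA1 was called lower at -1.05 ± 0.29, but stood at 6.73 on replicate 1 against 6.89, 7.07 and 7.25 and lost its call without NU7441 replicate 2 or 3 (-0.75 and -0.99) or any 1 vehicle array (-1.14 to -0.96).

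Classes of RNA that mostly lack a poly(A) tail held many raised genes, mainly through replicates 2 and 3. Of 50 tested histone genes 18 rose and 0 fell, with a median of 0.61 (0.26, 0.92 and 0.81 on replicates 1, 2 and 3). Of 150 small nucleolar and Cajal body RNAs 36 rose and 0 fell, with a median of 0.65 (0.36, 0.77 and 0.71). Of 21 spliceosomal and other small RNAs 12 rose and 0 fell, with a median of 1.18 (0.33, 1.80 and 1.65). Replicate 1 alone gave 5, 9 and 6 raised genes in these lists. Leaving out any 1 of the other arrays gave 9 to 12 histone genes, 21 to 25 small nucleolar and 7 to 8 spliceosomal RNAs. H2BC21 read 4.86, 5.16 and 5.07, then 6.36, 7.81 and 7.44 (2.18 ± 0.33), and H2AC18 rose by 1.82 ± 0.41 (0.70, 2.36 and 2.41 by array). SNORD46, which guides methylation of ribosomal RNA, read 5.43, 5.17 and 5.35, then 6.15, 8.38 and 8.26 (2.28 ± 0.52), and SNORD12C rose by 2.12 (0.89, 2.61 and 2.85 by array). SNORD14C rose by 1.96 (1.15, 2.23 and 2.50) and SNORA28 by 1.94 (0.95, 2.38 and 2.48). The U1 variants RNVU1-7 (1.38, 3.40 and 3.41) and RNVU1-18 (1.23, 3.23 and 3.31) rose by 2.73 and 2.59, and share near-identical sequence, as do many histone genes, so their separate values are uncertain. RN7SL1, the signal recognition particle RNA, stood at -0.06 ± 0.12. The 5S gene RNA5S9 read 7.30, 7.19 and 6.87, then 8.17, 11.34 and 11.38 (3.18 ± 0.75), and its call ended without vehicle replicate 3 (3.05). RNA28SN5 read 4.50, 4.43 and 4.17, then 4.33, 12.31 and 12.40 and was not called (adjusted p = 0.0527), and RNA18SN5 read 5.75, 5.55 and 5.65, then 6.44, 5.28 and 4.83. The gain on replicates 2 and 3 was thus seen at the 28S and 5S probes and not at the 18S probe. Only 1 probe was read per gene, and that of 28S was detected on 2 of the 3 vehicle arrays. The TotalPrep labelling kit named in the labels primes from the poly(A) tail, and the part of RNA quality or labelling in these values was not tested.

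Many matrix, contractile and growth factor binding genes fell, and replicate 1 lay nearer to vehicle than replicates 2 and 3 in many of them. Of 15 actin and contractile genes 9 fell and 0 rose, with a median of -1.02 (-0.47, -1.18 and -1.31 on replicates 1, 2 and 3). Of 14 matricellular targets of TGF-beta and YAP 7 fell, of 11 IGF axis genes 6 fell, and of 13 collagens 2 fell and 1 rose. Replicate 1 alone gave 2 contractile, 4 matricellular and 4 IGF axis genes. Leaving out any 1 of the other arrays gave 3 to 6 contractile genes. ACTA2, smooth muscle actin, read 9.43, 9.32 and 9.37, then 6.48, 4.40 and 4.21 (-4.35 ± 0.52, adjusted p = 0.000768). ACTG2, its enteric relative, fell evenly at 7.66, 7.69 and 7.52, then 5.25, 5.58 and 5.75 (-2.10 ± 0.15). CCN2, a connective tissue growth factor, read 9.45, 9.53 and 9.67, then 8.40, 4.58 and 4.69 (-3.66 ± 0.88), and lost its call without vehicle replicate 1 (-3.71) or 3 (-3.60). TPM1 and CALD1, which dress actin filaments, were called at -1.84 and -1.75, stood at 7.96 and 8.10 on replicate 1, and lost their calls without any 1 array other than NU7441 replicate 1 (-1.89 to -1.44 and -1.78 to -1.33). TGFBI, called at -4.10 ± 1.38, and IGFBP5, called at -3.50 ± 1.00, lost their calls under the same omissions (-4.12 to -2.98 and -3.60 to -2.69).

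Falls present on every array in this group included PAPPA, a protease that frees IGF (10.01, 9.82 and 9.91, then 7.39, 7.41 and 7.83, -2.37 ± 0.15), IGFBP4 (-1.94 ± 0.18) and COL3A1 (-1.64 ± 0.19). TGFB2 was detected on none of the NU7441 arrays and was at least 2.03-fold lower, as was the Wnt antagonist DKK1, at least 2.00-fold. COL11A1 read 6.91, 6.81 and 7.03, then 5.68, 4.15 and 4.17 (-2.25 ± 0.37). Beside these genes stand fibroblast markers, of which 4 of 8 tested fell and 0 rose. LUM read 6.72, 6.72 and 6.69, then 4.28, 4.41 and 4.91, and DCN read 7.33, 7.45 and 7.20, then 5.41, 5.82 and 5.72. The summed linear signal of the 8 genes was 1038 to 1307 on the vehicle arrays and 486 to 682 on the NU7441 arrays, and the defining marker PDGFRA was not detected on enough arrays to be tested. LUM and DCN were detected on none of the TC32 arrays. The part of another cell population in these falls was not tested, and fewer cells of a type and less RNA per cell cannot be told apart in bulk samples. Among retinoid genes, CRABP2 (-1.10 ± 0.19) was called lower and the receptor RARA rose (7.26, 7.34 and 7.43, then 8.25, 8.49 and 8.54, 1.09 ± 0.13). The CRABP2 call ended without NU7441 replicate 3 (-0.94) and that of RARA without between-array normalization (0.87). ALDH1A1, given above by array, was called at -5.47 ± 1.36 and lost its call without any 1 array other than NU7441 replicate 1 (-5.51 to -4.47).

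NF-kB and cytokine genes were called in both directions. Of 11 NF-kB factors and inhibitors 4 rose and 1 fell, replicate 1 alone gave 1 raised gene, and leaving out any 1 of the other arrays gave 2 to 3. NFKBIA, the inhibitor that holds NF-kB in the cytoplasm, read 8.86, 9.05 and 8.89, then 10.02, 10.80 and 10.62 (1.55 ± 0.20, adjusted p = 0.00105). NFKB1, at 1.28 ± 0.30, read 8.05 on replicate 1 and 9.16 and 9.31 on the others against 7.67, 7.42 and 7.58, and its call ended without vehicle replicate 2 (1.21). RELB (1.22 ± 0.36, detected on 1 of 3 vehicle arrays, 0.26, 1.65 and 1.75 by array) and BCL3 (-1.23 ± 0.30, with -0.45, -1.65 and -1.58) were split in the same way and lost their calls without NU7441 replicate 2 (1.00 and -1.02) or 3 (0.95 and -1.05) or vehicle replicate 1 or 3 (1.14 and 1.36, -1.20 and -1.15), RELB also without vehicle replicate 2 (1.15). Of 7 chemokines and cytokines 1 rose, CXCL8, and 3 fell. CXCL8, called at 2.73 ± 0.89, lost its call without any 1 array other than NU7441 replicate 1 (2.03 to 2.74). CXCL14 read 9.12, 9.24 and 9.08, then 6.54, 4.27 and 4.39 (-4.08 ± 0.52). TNFSF13B (BAFF), a B cell survival factor, fell evenly at 9.39, 9.27 and 9.32, then 6.31, 6.68 and 6.51 (-2.83 ± 0.13, adjusted p = 2.39e-05). CCL2 fell by 1.17 on the log2 scale (-0.78, -1.34 and -1.38 by array). Of 16 interferon-stimulated genes 2 were called lower (12.5%, against 6% of all genes). IFITM2 fell (-1.22 ± 0.13), and ISG15 was called at -1.04 ± 0.27 (-0.37, -1.59 and -1.15 by array), a call that ended without NU7441 replicate 2 or 3 (-0.76 and -0.98) or any 1 vehicle array (-1.10 to -0.998).

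Feedback genes of growth signalling were lower in part. DUSP6, a phosphatase induced by ERK, read 6.35, 6.29 and 6.70, then 5.41, 5.08 and 5.17 (-1.22 ± 0.16), and ETV5 fell by 1.27 ± 0.15. These were 2 of 8 MAPK feedback genes, and 0 rose. Of 15 genes of PI3K, mTOR and FOXO feedback 3 fell and 0 rose, TSC22D3 (above), IRS1 (-1.22 ± 0.23, with -0.64, -1.62 and -1.40 by array) and GADD45A (-1.22 ± 0.13). Without background correction DUSP6 (-0.60), ETV5 (-0.47), IRS1 (-0.63) and GADD45A (-0.85) were under the fold minimum and lost their calls, while TSC22D3 kept its call. The FOXO targets CCNG2 (0.67 ± 0.16) and SESN1 (0.81 ± 0.21), IRS2 (0.81 ± 0.18) and FOXO3 (0.77 ± 0.22) stood higher on every NU7441 array and below the fold minimum. Of the 15 genes, 6 lay above vehicle on every NU7441 array and 5 below, with a median of 0.035. Over all genes these shares were 24.4% and 26.6%. PMAIP1 (NOXA), a BH3-only activator of apoptosis, read 6.78, 7.01 and 7.10, then 5.46, 5.01 and 5.15 (-1.76 ± 0.16). It was the only called gene of 12 in the BCL2 family (8.33%, against 6% of all genes called lower). IER3 (1.16 ± 0.17) and MAFF (1.03 ± 0.14) rose among 11 immediate early genes, though the MAFF call ended without vehicle replicate 1 (0.98), NU7441 replicate 1 (0.98) or NU7441 replicate 3 (0.97), and that of IER3 without between-array normalization (0.94). FOS was called at -1.51 ± 0.37 (-0.50, -1.96 and -2.07 by array), and lost its call without vehicle replicate 1 or 2 (-1.48 each) or NU7441 replicate 2 (-1.28).

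Some genes tied to the EWS-FLI1 fusion fell, in both the activated and the repressed lists. Of 26 activated genes 8 fell and 0 rose, with a median of -0.43, and of 19 repressed genes 9 fell and 0 rose, with a median of -0.99. Replicate 1 alone gave 4 and 4, and leaving out any 1 of the other arrays gave 5 to 8 and 6 to 7. EWSR1 read 8.94, 8.89 and 8.87, then 9.40, 9.15 and 8.99 (0.28 ± 0.14), and FLI1 read 5.35, 5.51 and 5.28, then 5.65, 5.55 and 6.11 (0.39 ± 0.17). The probes do not single out the fusion transcript. Among the activated genes the uridine phosphorylase UPP1 read 7.15, 7.22 and 7.13, then 5.18, 4.39 and 4.40 (-2.51 ± 0.21). CAV1, a caveolar coat protein, fell by 1.72 (12.25, 12.49 and 12.41, then 11.67, 10.29 and 10.03), and LIPI and PDGFC changed by -1.70 (-1.05, -2.08 and -1.99 by array) and -1.69 (-1.10, -1.96 and -2.004). MYC (0.37 ± 0.13), NKX2-2 (-0.12 ± 0.22) and SOX2 (-0.26 ± 0.11) did not pass. Most of the repressed genes that fell were the matricellular and IGF axis genes above, which include TGFBI, CCN2, IGFBP5 and IGFBP7. As a check of the cell type, all 12 Ewing sarcoma markers were tested and 4 fell (PAPPA, LIPI, PRKCB and STEAP1). PRKCB (-1.13, with -0.56, -1.37 and -1.47 by array) and STEAP1 (-1.02, with -0.64, -1.28 and -1.13) lost their calls without NU7441 replicate 3 (-0.97 and -0.96), and STEAP1 also without NU7441 replicate 2 (-0.89). CD99, the diagnostic surface antigen, read 9.53, 9.43 and 9.62, then 9.78, 8.73 and 8.45. Their summed linear signal was 10534 to 11096 with vehicle, 9558 on NU7441 replicate 1, and 7455 and 7562 on replicates 2 and 3. Of the 7 leukocyte markers 2 were tested, ITGB2 and CD68, and the defining markers PTPRC, CD3E and CD14 and the muscle markers MYOD1 and MYOG were not detected on enough arrays to be tested. ITGB2, the beta chain of leukocyte integrins, read 10.92, 10.93 and 10.77, then 10.62, 5.48 and 5.51 (-3.67 ± 1.19), and lost its call without any 1 array other than NU7441 replicate 1 (-3.72 to -2.81). The macrophage marker CD68, also a lysosomal protein, rose by 1.45 ± 0.21 (1.03, 1.40 and 1.91 by array). The summed linear signal of the pair was 1838 to 2046 with vehicle, 1751 on NU7441 replicate 1, and 279.6 and 378.5 on replicates 2 and 3. HAND2, the only neuroblast marker of 7 that was tested, was called at -1.94 (-0.26, -2.81 and -2.73 by array), and lost its call under the same omissions (-2.05 to -1.496). The part of these markers in the other results was not tested. The epithelial marker EPCAM, detected on none of the NU7441 arrays, was at least 1.70-fold lower, a call that ended without NU7441 replicate 2 or 3 (-0.95 and -0.97) or vehicle replicate 1 or 3 (-0.92 and -0.97).

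Few housekeeping and bulk metabolic genes were called. Of 73 ribosomal protein genes 2 rose and 1 fell (2.74% and 1.37%, against 3.76% and 6% of all genes). Of 72 oxidative phosphorylation genes and 32 proteasome genes 0 were called by limma. The medians of the 3 lists were 0.03, -0.11 and -0.23. At an unadjusted p under 0.05 there were 15 oxidative phosphorylation and 11 proteasome genes, against 5321 of all 11031 genes. Without NU7441 replicate 1 limma called 2 oxidative phosphorylation genes lower. Of 26 glycolysis and hypoxia genes 3 rose and 2 fell, all of them under 1 log2 unit on replicate 1. Without NU7441 replicate 1 there were 3 and 6, and without any 1 other array 1 to 2 and 1 to 2. ADM, the hypoxia-induced adrenomedullin, read 7.19, 7.27 and 7.13, then 6.21, 4.73 and 4.49 (-2.05 ± 0.39). BNIP3L, a mitophagy receptor, rose by 1.09 ± 0.17 (0.73, 1.26 and 1.28 by array), and its call ended without NU7441 replicate 3 (0.996) or between-array normalization (0.89). NQO1, a quinone reductase under NRF2 and the aryl hydrocarbon receptor, read 9.01 on replicate 1 and 5.37 and 5.55 on the others against 7.36, 7.41 and 7.31. Likewise TXNRD1 read 10.02 on replicate 1 and 8.44 and 8.40 on replicates 2 and 3, against 8.05 ± 0.19 (SD, n = 3) with vehicle. ACTB stood at -0.13 ± 0.20 and GAPDH at -0.13 ± 0.12, and with median scaling both turned positive (0.17 each).

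**Figure D5:**
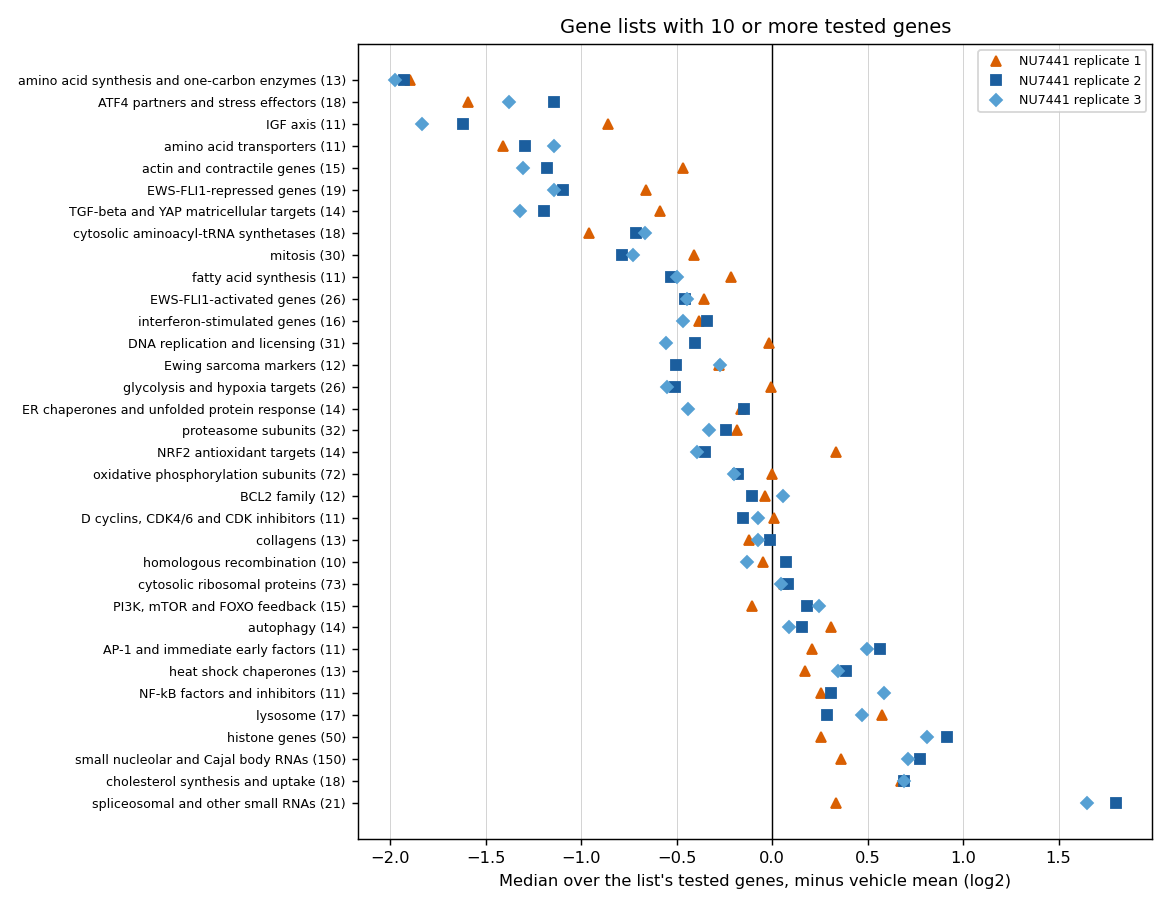
Median difference from the vehicle mean in log2 units on each NU7441 array for gene lists with 10 or more tested genes (number tested in brackets). The amino acid enzyme and cholesterol lists have their 3 arrays close together, while contractile, matricellular, IGF axis, histone and small RNA lists have replicate 1 nearer to 0 than replicates 2 and 3.

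Against the response of TC32 to the same treatment, the difference between lines was tested in a fit of all 12 arrays for the 129 called genes named by rule. These genes were chosen for their change in SKNMC, which favours a larger change there, and the share over all genes is not given. The difference passed (adjusted p under 0.05 and 1 log2 unit or more) in 24 of the 129, and in 10 of the 24 genes ranked for moving on every array. Without NU7441 replicate 1 the count was 60, and without NU7441 replicate 3, vehicle replicate 1 or vehicle replicate 2 it was 15. COL7A1 rose by 3.79 in SKNMC and stood at 0.72 in TC32 (difference 3.06 ± 0.44 SE, adjusted p = 0.00256). LUM and DCN were detected on none of the 6 TC32 arrays, MBD3L2, MBD3L3, MBD3L4, ACTG2 and CCND2 on 1, MBD3L5 on 2 and ETV5 on 4, which limits any fall that could be measured there. COL7A1 was detected on 4 of the 6 TC32 arrays and EFR3B on 3. TXNIP changed by -3.84 and -1.20 in the respective lines (difference -2.64 ± 0.45, adjusted p = 0.00716). HMGCS1 (1.55 against 3.45) and INSIG1 (1.11 against 3.18) rose less in SKNMC. For LSS (1.59 against 2.04) and HSD17B7 (1.34 against 0.93) the difference did not pass. COL3A1 fell less in SKNMC (-1.65) than in TC32 (-3.43). Of the amino acid genes SLC7A1 fell more in SKNMC (-2.58 against -1.37, difference -1.21 ± 0.24, adjusted p = 0.0176). For STC2 (-3.60 and -2.73) the difference of -0.87 was under the fold minimum (adjusted p = 0.0311). For TRIB3 (-3.72 and -3.59), PCK2 (-3.75 and -3.61) and CTH (-3.45 and -2.93) the difference did not pass the test, which does not show that the lines responded alike.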

How the data were processed

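Total RNA was made into biotin-labelled cRNA and hybridised to Illumina BeadChips, 1 array per sample. The deposited table holds non-normalized bead intensity and a detection p-value for each of 47319 probes, per the file headers, and GenomeStudio, lumi and R 3.0.2 are listed among the tools in the submitters' processing notes. A second deposited table holds the authors' processed log2 values and served as an alternative. All sample columns were matched to labels, and 0 were left unused.

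The 6 SKNMC arrays were background corrected and quantile normalized with neqc (offset 16, negative controls inferred from detection p-values) and fitted with lmFit and eBayes in limma 3.58.1 (R 4.3.3). Genes took their brightest detected probe. Of the probes 30112 have 1 gene symbol, 8 have several and 17199 have none, and 30073 took the RefSeq symbol of their Entrez number, changed or not (GRCh38.p14, names only). A call needed a Benjamini-Hochberg adjusted p under 0.05 and 1 log2 unit. TC32 levels and the difference between lines came from 12 arrays normalized together. Array number limits precision.

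Named genes were the 12 highest and 12 lowest called genes by smallest difference on any array, the 8 each way with the widest gap between replicate 1 and the other NU7441 arrays, called list members and a few fixed genes. Genes outside this rule were named after their values were seen. Members and lists were chosen with earlier results of these data known. The fit was tested on simulated data. Same-numbered samples showed little shared deviation (correlations 0.039, 0.0012 and 0.0404, against -0.0459 to 0.0374 for other pairs). With 3 arrays per group and the gap of NU7441 replicate 1, this check cannot exclude pairing. Python 3.11.15, pandas 2.3.3 and matplotlib 3.10.9 read promoters and drew figures.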

Additional observations from a re-analysis of the deposited data

Results flagged for a closer look

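For 24 of the 129 genes named for their call in SKNMC, the change with NU7441 differed between SKNMC and TC32 in the fit of all 12 arrays. This choice of genes favours a larger change in SKNMC, and the share over all genes is not given. The value given is the SKNMC change minus the TC32 change in log2 units. Among genes raised in SKNMC, COL7A1 (3.06), H2BC21 (1.95), NFKB1 (1.66), EFR3B (1.20), TP53INP1 (1.10) and TESK2 (1.00) had the more positive change there, and HMGCS1 (-1.90) and INSIG1 (-2.06) the less positive one. Among genes lowered in SKNMC, MBD3L5 (-4.15), MBD3L3 (-3.25), MBD3L4 (-3.24), MBD3L2 (-3.21), ACTA2 (-2.85), TXNIP (-2.64), LUM (-2.20), TSC22D3 (-1.90), ACTG2 (-1.77), UPP1 (-1.66), DCN (-1.63), ETV5 (-1.30), ELOVL6 (-1.26), SLC7A1 (-1.21) and CCND2 (-1.08) had the more negative change there. COL3A1 (1.78) fell less in SKNMC than in TC32. LUM and DCN were detected on none of the 6 TC32 arrays, MBD3L2, MBD3L3, MBD3L4, ACTG2 and CCND2 on 1, MBD3L5 on 2 and ETV5 on 4, which limits the falls measured there. COL7A1 was detected on 4 of the 6 TC32 arrays and EFR3B on 3. The groups of 3 arrays are too small for a test of single samples that stand apart.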

How the results depend on the processing

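No called gene changed direction in any alternative run. Genes higher numbered 415, and came to 242 without both NU7441 arrays 2 and 3, 260 without between-array normalization, 130 without background correction, 131 in the submitters' log2 table, 1961 without a fold minimum, and 334 to 625 when 1 array was left out, 625 being without NU7441 replicate 1. Genes lower numbered 662, and came in the same settings to 387, 874, 206, 208, 2160 and 522 to 904. With a replicate block the counts were 418 and 675, and all 1077 calls were kept. Genes that differed between lines numbered 24, 69 with array weights (which gave NU7441 replicate 1 a weight of 0.16) and 15 to 60 when 1 array was left out. Among uncalled genes, ACTB turned from -0.13 to 0.35 without both NU7441 arrays 2 and 3 and to 0.17 with median scaling, GAPDH from -0.13 to 0.17 with median scaling, and PRKDC from -0.14 to 0.0148 without both NU7441 arrays 2 and 3. Of 134 named genes, 42 called ones differed by less than 1 log2 unit on NU7441 replicate 1. Calls were lost in 50 without background correction and in 49 in the submitters' table, and the cause was not tested. Signals near background limit the folds of genes undetected in a group. Slide as a block was not run, because the files give no slide.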
